A study of Mus musculus with 6 samples.

Results

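The 10 genes described here mark the helper T cell fates that a Th17 culture is meant to avoid: Tbx21, Eomes, Hlx, Runx3, Ifng, Gata3, Gzmb, Ccl3, Ccl4 and Ccl5, the regulators and effectors of Th1 and Th2 cells. They are 10 of the 15452 genes in the deposited table, chosen by name and matched through their gene identifiers, and all 10 had enough counts to be tested. The libraries are bulk messenger RNA from mouse CD4+ T cells grown towards the Th17 fate. The PDH knockout group (KO, 3 libraries) came from mice with floxed PDH alleles and CD4 Cre, and the WT group (3 libraries) from mice with the floxed alleles and no Cre, so Cre and the deletion cannot be told apart. The genotype field and the growth protocol spell the target PDH and the sample titles spell it PHD; PDH is used here, and the labels do not settle the difference. CD4 Cre acts from the thymus onward, so the deletion is not limited to the culture. In both groups naive CD4+ T cells from spleen and lymph nodes, isolated with magnetic beads, were held for 3 days on plate-bound antibody to CD3 (5 µg/mL) with antibody to CD28 (1 µg/mL), IL-6 (30 ng/mL), TGFβ (2 ng/mL) and a blocking antibody to interferon γ (5 µg/mL). The blocking antibody was thus present for every value below. Mouse age and strain are not stated. No label ties a replicate to an animal of its own, so p-values measure only the spread between these libraries, which may be technical.

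Th1 cells are set up by T-bet, the product of Tbx21, which is induced by interferon γ and IL-12 signals and in turn switches on Ifng. Eomes is a second T-box factor, Hlx a homeobox factor that acts with T-bet in Ifng activation, and Runx3 a runt-domain factor that acts beside T-bet and helps silence Il4. Gata3 is the master regulator of Th2 cells and restrains the Th1 programme, and TGFβ opposes both fates. Gzmb encodes the cytotoxic protease granzyme B, and Ccl3, Ccl4 and Ccl5 encode chemokines that effector T cells secrete.

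Sequence upstream of the genes was read in the RefSeq promoter table (mouse build GRCm38.p6), which matched 8 of the 10 genes with 9 start sites, since Runx3 has a pair of them. The build behind the counts is not given in the sources used here, and counts over a whole gene do not separate start sites. The 250 bases before each start were searched on both strands for 6 short motifs: the RUNX core TGTGGT, the T-box motif GGTGTGA, the GATA motifs AGATAA and TGATAA, the AP-1 motif TGANTCA, the STAT motif TTCNNNGAA and the ETS core CCGGAA. The RUNX core was found in 3 of the 9 windows, against 14.05% of 32851 windows in the whole table. Those 3 windows belong to Gzmb, to the upstream start of Runx3 and to Ccl3, and they are shown because Gzmb and Runx3 are among the genes that fell in KO and Ccl3 ranked its libraries as Ccl4 did. Capitals mark the RUNX core on either strand (TGTGGT or ACCACA).
Gzmb, chr14:56262335-56262584, minus strand: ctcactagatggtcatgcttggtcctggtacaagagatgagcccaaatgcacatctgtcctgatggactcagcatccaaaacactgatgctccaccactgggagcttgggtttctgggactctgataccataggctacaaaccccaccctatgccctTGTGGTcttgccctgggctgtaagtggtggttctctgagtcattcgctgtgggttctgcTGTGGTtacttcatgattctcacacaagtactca
Runx3, upstream start, chr4:135120395-135120644, plus strand: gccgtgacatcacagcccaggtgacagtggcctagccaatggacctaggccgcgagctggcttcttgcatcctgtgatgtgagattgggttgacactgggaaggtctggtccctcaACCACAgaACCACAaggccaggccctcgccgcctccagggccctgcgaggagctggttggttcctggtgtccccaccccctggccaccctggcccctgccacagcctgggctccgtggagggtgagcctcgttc
Ccl3, chr11:83649379-83649628, minus strand: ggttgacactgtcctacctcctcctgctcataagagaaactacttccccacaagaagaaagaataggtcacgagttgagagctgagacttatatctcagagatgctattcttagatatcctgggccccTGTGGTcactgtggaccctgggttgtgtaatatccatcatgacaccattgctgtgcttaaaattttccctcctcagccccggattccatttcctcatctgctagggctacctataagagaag

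Gzmb held the core at 93 and 34 bases before its start, and Runx3 held it at 134 and 126 bases. Ccl3 held it once, at 122 bases. The AP-1 motif was in 1 of the 9 windows, that of Gzmb at 58 bases before the start, where it does not overlap either RUNX core, and in 6.75% of all windows. The STAT motif was in 1 window, that of Ifng (7.02% of all windows), and the ETS core in 1, that of Gata3 (12.03%). The T-box and GATA motifs were in 0 of the 9 windows, against 3.33% and 16.6% of all windows. A match is a description of letters and shows neither binding nor a cause.

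Library totals ran from 33802154 to 39398842 counts in KO and from 37556787 to 40407124 counts in WT. As a check of the labels, Pdha1, which encodes a subunit of pyruvate dehydrogenase, was at 193 ± 6.33 CPM in KO and 248 ± 10.2 CPM in WT (SD, n = 3 each). CPM stands for a gene's counts scaled to library size by TMM, and the log2 fold change was -0.36 (adjusted p = 0.000871), a call lost when tested against a 1.2-fold change. No label gives the symbol of the floxed gene, and whole-gene counts do not show the loss of an exon, so this value does not settle which gene was deleted. The T cell gene Cd3e was at 133 ± 5.55 CPM in KO and 137 ± 5.61 CPM in WT, and Cd4 at 345 ± 19.4 CPM in KO and 488 ± 3.33 CPM in WT. Il17a was present in all libraries, at 57.0 to 69.8 CPM in KO and 147 to 159 CPM in WT. B cell markers were uneven: their sum over 8 markers was 4.67, 52.3 and 84.0 CPM in KO replicates 1 to 3 and 5.51, 27.4 and 5.20 CPM in WT replicates 1 to 3 (by library totals). KO replicate 2 also stood apart from its group, with a chi-square per degree of freedom of 154 against KO replicate 1 and 143 against KO replicate 3, where KO replicates 1 and 3 gave 30.1 against each other.

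In KO cultures 2 of the 10 genes rose (Ccl5 and Hlx), 3 fell (Runx3, Gzmb and Ccl4) and 5 were not called (Tbx21, Eomes, Ifng, Gata3 and Ccl3). Each gene in the table reaches 10 counts in at least 3 libraries; Hlx does so through KO libraries alone, so it could be in the table only by being higher in KO. A gene is called here when edgeR's quasi-likelihood test gives it a Benjamini-Hochberg adjusted p under 0.05, the adjustment covering the whole table of 15361 tested genes. Across all tested genes 47.6% were called, 23.1% higher and 24.5% lower, so 5 of 10 is close to that background. Under upper-quartile scaling 59.95% of the calls across the transcriptome were higher, against 48.53% here, and the same 5 genes were called. The groups did not overlap in the 5 called genes, against 58.2% of all tested genes. The median log2 fold change of KO over WT was -0.29 over the 10 genes and 0.01 over all tested genes. Called genes lay on both sides of 0, and they are described below by their roles.

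**Figure D1:**
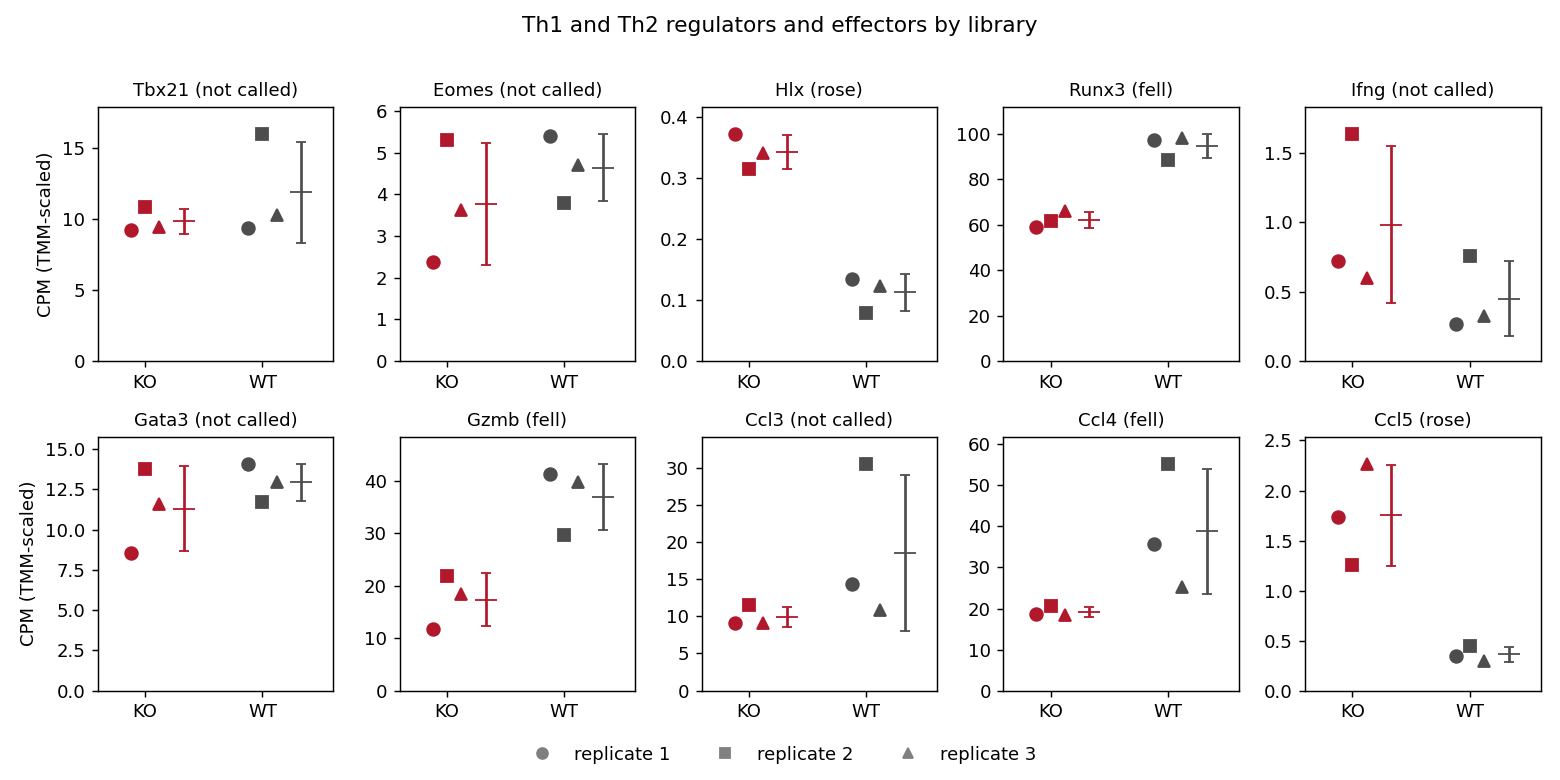
Level of each of the 10 genes in each library, in TMM-scaled CPM on a linear axis from 0, with KO to the left of WT; symbols are replicates, and the bar at the side is the mean with SD (n = 3 each). Runx3, Gzmb and Ccl4 sit lower in all KO libraries than in any WT library, Ccl5 and Hlx sit higher, and the groups of the other genes overlap.

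Among the transcription factors, the lineage-defining pair Tbx21 and Gata3 was not called. Tbx21 (ENSMUSG00000001444.3) was at 9.21, 10.8 and 9.46 CPM in KO replicates 1 to 3 and 9.35, 16.0 and 10.3 CPM in WT replicates 1 to 3. WT replicate 2 alone was high, and the other WT libraries lay within the KO range. The log2 fold change was -0.27 ± 0.19 (SE), with a 95% interval of -0.71 to 0.17 (adjusted p = 0.276), and it was -0.0005 without WT replicate 2.

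Gata3 (ENSMUSG00000015619.11) was at 8.52, 13.7 and 11.6 CPM in KO and at 14.1, 11.7 and 13.0 CPM in WT. KO replicate 1 was the low library and the groups overlapped. Its log2 fold change was -0.20 ± 0.16 (95% interval -0.57 to 0.17, adjusted p = 0.348), and it was -0.03 without KO replicate 1 and -0.37 without KO replicate 2 (adjusted p = 0.0864). The interval leaves room for a decrease of up to 0.57 on the log2 scale in KO, so the data do not show that Gata3 was alike in the groups. When the 3 libraries rich in B cell markers were left out, KO replicate 1 stood alone against WT replicates 1 and 3, and Gata3 was then called lower at -0.66 (adjusted p = 0.00922); that fit takes the lone library to vary as WT does.

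Eomes (ENSMUSG00000032446.15) followed the same libraries. It was at 2.38, 5.30 and 3.63 CPM in KO and 5.40, 3.80 and 4.72 CPM in WT, so the groups overlapped. For Eomes the log2 fold change was -0.30 ± 0.27 (95% interval -0.93 to 0.32, adjusted p = 0.389). Without KO replicate 1 it was -0.06, without KO replicate 2 it was -0.63 (adjusted p = 0.0659), and with KO replicate 1 as the lone KO library it was -1.09 (adjusted p = 0.00822).

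Runx3 (ENSMUSG00000070691.11) had the smallest p among the regulators. It was at 59.0, 61.5 and 66.0 CPM in KO and at 97.2, 88.5 and 98.0 CPM in WT. Every KO library lay below every WT library, and the spread within groups was small, with a coefficient of variation of 5.71% in KO and 5.56% in WT. The log2 fold change was -0.61 ± 0.07 (95% interval -0.76 to -0.46, adjusted p = 0.000125), a level 0.657 times that of WT, and it kept its call under all 18 alternatives tried. Runx1, the related factor that Th17 cells also use, did not pass (50.1 ± 3.29 CPM in KO, 50.2 ± 4.31 CPM in WT, 95% interval -0.18 to 0.17, adjusted p = 0.979). Cbfb, the shared partner that RUNX proteins need to bind DNA, rose by 0.28 ± 0.09 on the log2 scale (adjusted p = 0.0255), with overlapping groups. The Cbfb call was lost without KO replicate 1 or 2 or WT replicate 1 or 3, with adjusted p of 0.0867, 0.0866, 0.108 and 0.0779, and the value was 0.45 when the 3 libraries rich in B cell markers were left out. Zbtb7b, the CD4 lineage factor ThPOK that opposes Runx3 in the thymus, fell by 0.43 ± 0.06 (adjusted p = 0.00046).

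Hlx (ENSMUSG00000039377.8) passed the test as higher in KO, with few counts in either group. It reached 10 counts in no WT library, so its presence in the table depended on its KO level and its direction is not an independent result. Its deposited counts were 15, 11 and 12 in KO and 5, 3 and 5 in WT, or 0.371, 0.315 and 0.340 CPM in KO and 0.135, 0.0786 and 0.124 CPM in WT. The groups did not overlap, but a count of 3 in WT replicate 2 is at the level that a count of 0 allows. For Hlx the log2 fold change was 1.58 ± 0.39 (95% interval 0.70 to 2.46, adjusted p = 0.00871). The call was lost by DESeq2 (adjusted p = 0.0775) and when the 3 libraries rich in B cell markers were left out (adjusted p = 0.104).

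Ifng (ENSMUSG00000055170.5), the Th1 effector cytokine, was also barely detected and was not called. Its counts were 29, 57 and 21 in KO and 10, 29 and 13 in WT, which give 0.718, 1.63 and 0.595 CPM in KO and 0.270, 0.759 and 0.321 CPM in WT. Replicate 2 was the high library in each group, and WT replicate 2 lay above KO replicates 1 and 3. Its log2 fold change was 1.11 ± 0.50 (95% interval -0.03 to 2.26, adjusted p = 0.0991). Without WT replicate 2 it was 1.71 and called (adjusted p = 0.0222), and without KO replicate 2 it was 0.54 (adjusted p = 0.374).

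Gzmb (ENSMUSG00000015437.6) was lower in every KO library than in any WT library. It was at 11.8, 21.8 and 18.4 CPM in KO and at 41.2, 29.6 and 39.8 CPM in WT. KO replicate 1 was the lowest library and WT replicate 2 the lowest of its group. Its log2 fold change was -1.09 ± 0.25 (95% interval -1.72 to -0.47, adjusted p = 0.0159), a level 0.468 times that of WT. The call was lost without WT replicate 1 (-1.01, adjusted p = 0.0551) or WT replicate 3 (-1.04, adjusted p = 0.058). When the 3 libraries rich in B cell markers were left out the value was -1.78, with KO replicate 1, the lowest for Gzmb, as the lone KO library.

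The chemokine genes split. Ccl5 (ENSMUSG00000035042.3) was at 1.73, 1.26 and 2.27 CPM in KO and at 0.351, 0.445 and 0.297 CPM in WT, from counts of 70, 44 and 80 in KO and 13, 17 and 12 in WT. Each KO library lay well above all WT libraries. For Ccl5 the log2 fold change was 2.26 ± 0.30 (95% interval 1.59 to 2.93, adjusted p = 0.000321), a 4.79-fold higher level, and the call held in all 17 alternatives that tested the gene.

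Ccl4 (ENSMUSG00000018930.4) moved the other way. It was at 18.6, 20.5 and 18.3 CPM in KO and at 35.8, 55.2 and 25.3 CPM in WT. The KO libraries lay close together, with a coefficient of variation of 6.22%, while the WT libraries spread over 39.2%. The log2 fold change was -1.02 ± 0.30 (95% interval -1.78 to -0.26, adjusted p = 0.0405). This call was lost without KO replicate 1, 2 or 3 or WT replicate 1, with adjusted p of 0.13, 0.108, 0.119 and 0.0956, and without WT replicate 2 the log2 fold change shrank to -0.68 but was called (adjusted p = 0.00637). It was not called when the 3 libraries rich in B cell markers were left out (-0.72, adjusted p = 0.0787).

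Ccl3 (ENSMUSG00000000982.6) had the same shape and was not called. It was at 9.11, 11.5 and 9.10 CPM in KO and at 14.4, 30.5 and 10.8 CPM in WT. KO replicate 2 lay just above WT replicate 3, so the groups overlapped, and WT replicate 2 was far above the rest. The log2 fold change was -0.91 ± 0.44 (95% interval -2.05 to 0.23, adjusted p = 0.152), and it was -0.35 without WT replicate 2 and -0.47 when the 3 libraries rich in B cell markers were left out.

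**Figure D2:**
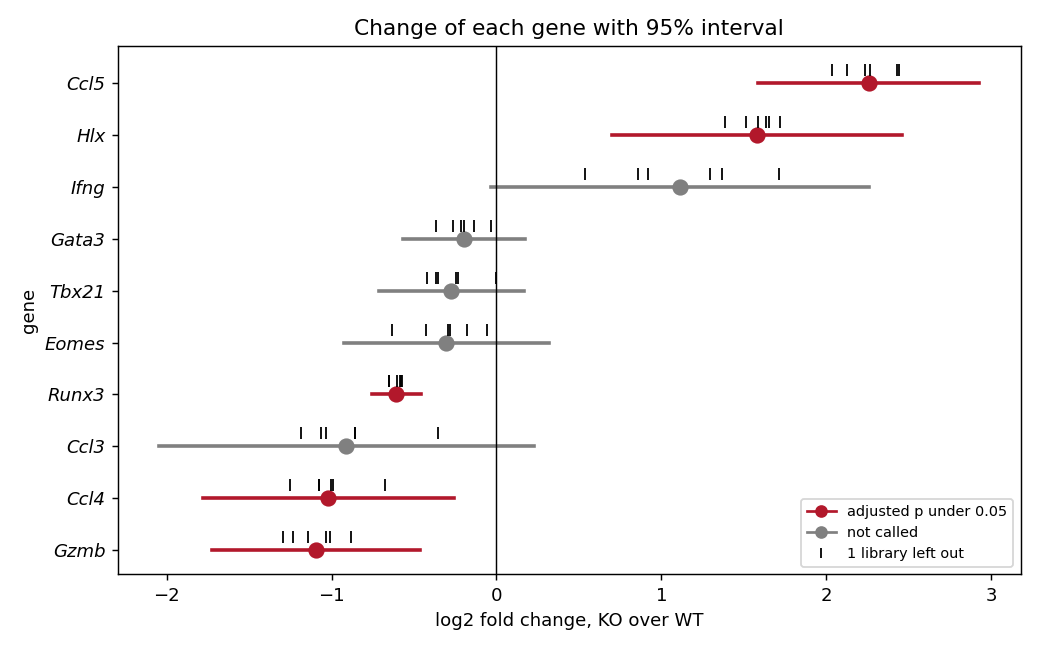
Log2 fold change of KO over WT for each of the 10 genes (points) with its 95% interval (lines), and the value with each library left out in turn (ticks). Ccl5 at 2.26 and Gzmb at -1.09 are the ends of the range, and the ticks of Tbx21, Eomes and Gata3 reach close to 0.

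Within groups some of the genes shared their high and low libraries. Eomes, Gata3 and Gzmb had KO replicate 2 highest and KO replicate 1 lowest, and WT replicate 1 highest and WT replicate 2 lowest, an order found in 2.02% of all tested genes. Ccl3 and Ccl4 shared another order, with replicate 2 highest in both groups, which 4.44% of tested genes had. Tbx21 and Ifng also had replicate 2 highest in both groups, but their full orders differed. The orders of Tbx21, Ifng, Hlx, Runx3 and Ccl5 were each shared with none of the other genes described here. Those orders were found in 2.56% to 5.57% of tested genes. All orders are descriptions of 6 libraries, and the sets were read from the same values.

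In bulk libraries fewer cells of a type and less RNA per cell cannot be told apart, and several of these genes are also made by other lymphocytes. Markers of natural killer and group 1 innate lymphoid cells (6 of 9 in the table) summed to 14.5 to 23.9 CPM in KO and 23.5 to 27.7 CPM in WT by library totals. KO replicates 2 and 3 were below all WT libraries, and KO replicate 1, the lowest library for Gzmb, was the highest KO library for these markers. Most of the sum was Klrc1, at 8.88 to 16.3 CPM in KO and 16.2 to 17.8 CPM in WT. Klrd1 was lower in KO without overlap, at 2.52 to 3.15 CPM in KO and 4.36 to 7.20 CPM in WT. Klrk1 lay the other way, at 1.54 to 2.06 CPM in KO and 1.07 to 1.34 CPM in WT. Tyrobp, a defining adaptor of natural killer cells, was at 0.196 to 0.385 CPM in KO and 0.203 to 0.453 CPM in WT, near the level of a few counts. CD8 markers (2 of 2) summed to 5.58 to 14.9 CPM in KO and 8.68 to 11.3 CPM in WT. KO replicate 2 held the most Cd8a, 8.64 CPM, against 1.07 and 3.08 CPM in the other KO libraries. It was the highest KO library for Tbx21, Eomes, Ifng, Gata3, Gzmb, Ccl3 and Ccl4, the lowest for Hlx and Ccl5, and between the others for Runx3. WT replicate 2 held the most Cd8a of its group, 3.58 CPM against 1.22 and 1.16 CPM. It was the highest WT library for Tbx21, Ifng, Ccl3, Ccl4 and Ccl5 and the lowest for Eomes, Hlx, Runx3, Gata3 and Gzmb. The other CD8 marker, Cd8b1, was at 4.52 to 6.24 CPM in KO and 7.46 to 8.27 CPM in WT. Markers of gamma delta T cells (5 of 5) summed to 8.22 to 11.1 CPM in KO and 3.83 to 5.72 CPM in WT, and basophil and mast cell markers (4 of 5) to 5.12 to 7.08 CPM in KO and 2.18 to 3.79 CPM in WT, with no overlap in either case. Of the basophil and mast cell markers only Kit did not overlap, at 2.64 to 3.78 CPM in KO and 0.825 to 1.14 CPM in WT. Mcpt8, Cpa3 and Ms4a2 overlapped. T cell and Th17 markers (10 of 10) summed to 1361 to 1511 CPM in KO and 1969 to 2303 CPM in WT, with no overlap. That sum includes Il17a and Il17f, which were lower in KO. Its markers Cd3d, Cd4, Trac and Il23r were also lower in every KO library than in any WT library. Cd3d was at 106 to 116 CPM in KO and 167 to 176 CPM in WT, and Trac at 162 to 202 CPM in KO and 289 to 326 CPM in WT. Cd3e and Rora overlapped, and Ccr6 lay the other way, at 60.3 to 79.6 CPM in KO and 35.8 to 43.3 CPM in WT. Myeloid markers (6 of 10) summed to 5.34 to 9.47 CPM in KO and 8.83 to 22.4 CPM in WT. The part of these cells in the values of the 10 genes was not tested.

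**Figure D3:**
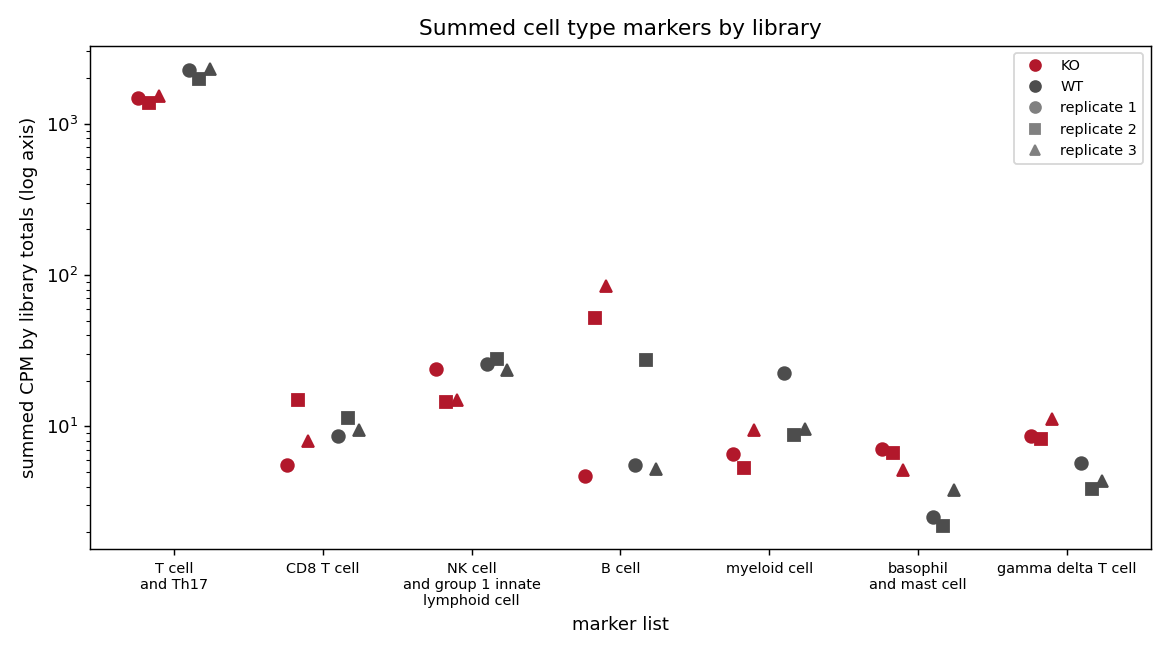
Summed CPM of each marker list in each library, by library totals on a log axis, with KO to the left of WT; symbols are replicates. The T cell and Th17 sum is lower in every KO library (1361 to 1511 CPM) than in any WT library (1969 to 2303 CPM). The B cell sum is raised in KO replicates 2 and 3 and WT replicate 2, and the natural killer sum is lowest in KO replicates 2 and 3.

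The genes around the 10 were read from 6 lists, chosen with earlier results of these data known. Of 88 tested genes 27 rose and 24 fell, while 37 did not pass, and 47.6% of all tested genes were called. Of the 27 that rose, 5 (Cxcl2, Gzmf, Havcr2, Prdm1 and Twist1) reached 10 counts in no WT library, so they could be in the table only by being higher in KO. The direction of these 5 is not an independent result. Among 16 cofactors and antagonists of the Th1 programme 8 rose and 5 fell, with a median log2 fold change of 0.19. Irf1, an interferon-induced factor that promotes Th1 genes, was at 55.3 ± 1.87 CPM in KO and 35.3 ± 1.17 CPM in WT (0.65 ± 0.06, adjusted p = 5.97e-05). Ets1, a cofactor of T-bet, was at 413 ± 11.8 CPM in KO and 692 ± 24.0 CPM in WT (-0.74 ± 0.06, adjusted p = 2.75e-05). Id2, an inhibitor of E proteins, rose by 0.67 ± 0.09. Bcl6, a repressor that opposes T-bet activity, rose by 0.51 ± 0.13 (adjusted p = 0.00918), and Bhlhe40, which supports Ifng in helper cells, fell by 0.34 ± 0.09 (adjusted p = 0.0111). When the 3 libraries rich in B cell markers were left out, which leaves 1 KO library, Bcl6 was at 0.33 and not called (adjusted p = 0.0806), and Bhlhe40 was at -0.58. Prdm1, which encodes Blimp-1, was at 0.454 ± 0.149 CPM in KO and 0.0949 ± 0.0123 CPM in WT (adjusted p = 0.0021).

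Of 14 genes that carry interferon γ and IL-12 signals 4 rose and 8 fell, with a median log2 fold change of -0.27. Over all tested genes 47.6% were called. The receptor genes of interferon γ both fell, Ifngr1 to 30.9 ± 0.467 CPM in KO against 57.9 ± 3.69 CPM in WT (-0.90 ± 0.07, adjusted p = 2.07e-05) and Ifngr2 by 0.53 ± 0.09 on the log2 scale (adjusted p = 0.0014). On the IL-12 side Il12rb2 and Stat4 both fell, by 2.61 ± 0.29 and 1.65 ± 0.16, while the IL-18 receptor subunit Il18rap rose by 1.58 ± 0.15. Named after their values were seen, the other subunits went the opposite way: Il12rb1 rose by 0.21 ± 0.06 (adjusted p = 0.0163) and Il18r1 fell by 0.36 ± 0.08 (adjusted p = 0.00445). The kinase gene Jak2 also rose, by 0.24 ± 0.07 (adjusted p = 0.0149). Socs3, a feedback inhibitor of cytokine signals, fell by 0.92 ± 0.10 (adjusted p = 0.00013).

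Of 14 Th1 effectors and surface genes 2 rose and 3 fell, while 9 did not pass, and 47.6% of all tested genes were called. The median log2 fold change of the list was -0.20. Fasl, the death ligand, was at 1.64 ± 0.591 CPM in KO and 6.33 ± 0.600 CPM in WT (-1.95 ± 0.24, adjusted p = 0.000204). Selplg, a selectin ligand, fell by 0.67 ± 0.07. Havcr2, which encodes the Th1-associated inhibitory receptor TIM-3, was at 0.702 ± 0.0884 CPM in KO and 0.180 ± 0.0626 CPM in WT (adjusted p = 0.00147). Cxcr3, a chemokine receptor that T-bet induces, was not called (15.8 ± 2.39 CPM in KO, 17.4 ± 2.14 CPM in WT, adjusted p = 0.407).

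On the Th2 side 20 of the 25 listed genes were tested, and Il4 and Il5 were not analysed here. Of the 20, 5 rose and 3 fell, with a median of -0.01, and 47.6% of all tested genes were called. The cytokine gene Il13 was at 0.514 ± 0.275 CPM in KO and 0.480 ± 0.142 CPM in WT, and its change was not called (adjusted p = 0.867). Named after their values were seen, the other cytokine genes tested in the list were Il9, Il10 and Areg. Il9 rose, at 42.2 ± 18.2 CPM in KO and 9.65 ± 0.329 CPM in WT (2.13 ± 0.34, adjusted p = 0.00585). Il10 and Areg were not called (adjusted p = 0.0724 and 0.838). Stat6, which carries the IL-4 signal to Gata3, was not called (232 ± 15.6 CPM in KO, 231 ± 4.73 CPM in WT, adjusted p = 0.945), and Il4ra, the IL-4 receptor subunit, was at 257 ± 15.3 CPM in KO and 335 ± 14.1 CPM in WT (-0.38 ± 0.07, adjusted p = 0.00122). Maf, a factor that activates Il4 and is also used by Th17 cells, was at 211 ± 29.1 CPM in KO and 122.6 ± 8.08 CPM in WT (0.78 ± 0.10, adjusted p = 0.000303). Stat5a, which relays IL-2, was at 613 ± 37.8 CPM in KO and 346 ± 55.5 CPM in WT (adjusted p = 0.000505). Ccr8, a Th2-associated chemokine receptor, fell by 0.79 ± 0.09 (adjusted p = 0.000148).

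Of 15 tested cytotoxic granule genes 3 rose and 5 fell, with a median of -0.04, and 47.6% of all tested genes were called. Srgn, the proteoglycan that packs granzymes, was at 180 to 227 CPM in the 3 libraries of KO and 340 to 409 CPM in the 3 libraries of WT (-0.83 ± 0.10, adjusted p = 0.000282), and Lamp2 fell by 0.53 ± 0.08. Prf1, the pore-forming partner of granzyme B, was not called, at 1.55 ± 0.288 CPM in KO and 1.65 ± 0.137 CPM in WT (adjusted p = 0.766). Gzmc and Gzmf, close relatives of Gzmb whose similar sequences make counts uncertain, were higher in KO, with WT at trace levels: Gzmc was at 0.933 ± 0.358 CPM in KO and 0.236 ± 0.100 CPM in WT (adjusted p = 0.00381), and Gzmf at 0.636 ± 0.0587 CPM in KO and 0.0437 ± 0.0165 CPM in WT (adjusted p = 0.00012). Gzmf had counts of 2, 2 and 1 in WT, at or under the level that a count of 0 allows. Gzmc was at 0.99 and not called when the 3 libraries rich in B cell markers were left out (adjusted p = 0.218).

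Of the 16 listed chemokine ligands and receptors 9 were tested. Of these 5 rose and 0 fell, with a median of 1.196, and 23.1% of all tested genes were called higher. The list leaves out Ccl3, Ccl4 and Ccl5, of which Ccl4 fell and Ccl3 was not called, so the count is not one of chemokines as a whole. Ccl20, a ligand of CCR6, was at 41.3 ± 3.24 CPM in KO and 15.3 ± 4.02 CPM in WT (1.44 ± 0.17, adjusted p = 0.000538). Cxcl10, an interferon-induced ligand of CXCR3, was at 6.69 ± 2.75 CPM in KO and 1.89 ± 0.355 CPM in WT (1.82 ± 0.29, adjusted p = 0.00113), and Cxcl2 was higher in KO, with counts of 19, 21 and 22 in KO and 4, 2 and 4 in WT (adjusted p = 0.000544). Ccl22 was at 3.49 ± 2.07 CPM in KO and 0.636 ± 0.410 CPM in WT (adjusted p = 0.0366), a call lost without KO replicate 2 or 3 or WT replicate 1 or 3 (adjusted p = 0.0877, 0.0835, 0.135 and 0.109). Its log2 fold change of 2.45 was 1.47 when the 3 libraries rich in B cell markers were left out. Ccr1, a receptor for Ccl3 and Ccl5, was at 0.905 ± 0.481 CPM in KO and 0.395 ± 0.131 CPM in WT (adjusted p = 0.0383). That call was lost by DESeq2, by limma-voom and without KO replicate 1 or WT replicate 1, 2 or 3 (adjusted p = 0.183, 0.124, 0.0565 and 0.0611 for the libraries). Its log2 fold change of 1.196 was 0.65 without KO replicate 1 and 2.02 when the 3 libraries rich in B cell markers were left out. Xcl1, a chemokine that Th1 and CD8 cells share, was not called (4.78 to 13.8 CPM in KO, 2.40 to 6.10 CPM in WT, adjusted p = 0.201). Its log2 fold change was 0.86 when the 3 libraries rich in B cell markers were left out, with KO replicate 1 as the lone KO library.

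**Figure D4:**
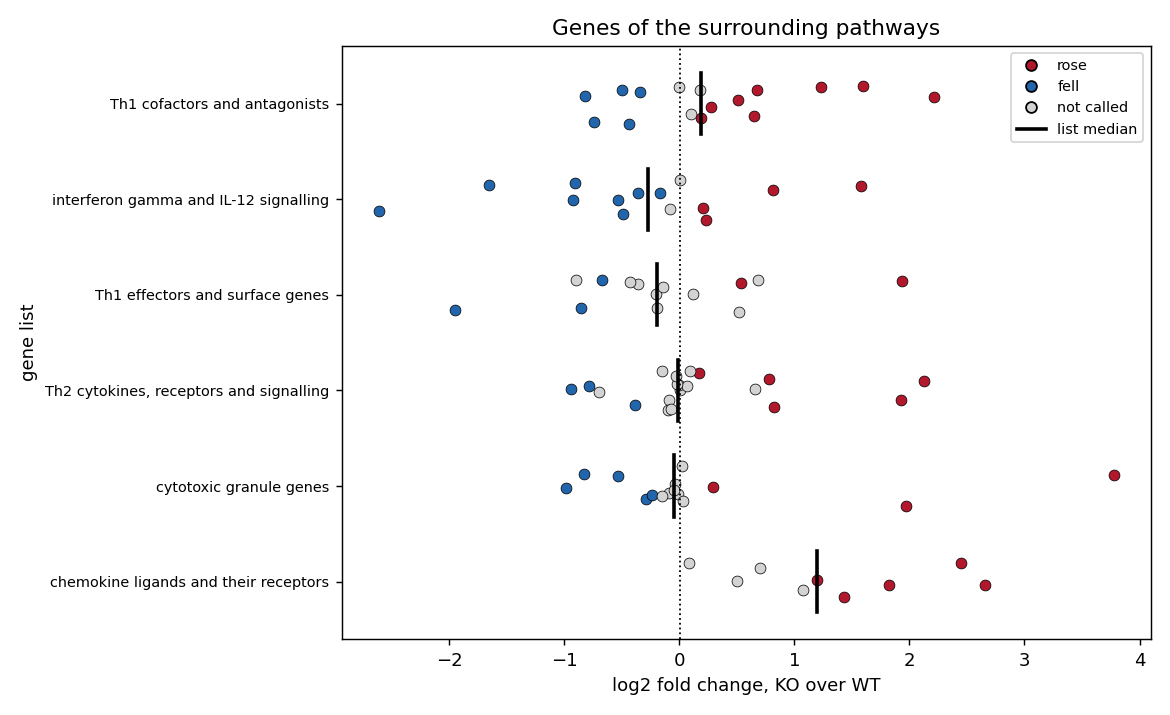
Log2 fold change of KO over WT of each tested gene in the 6 surrounding lists, coloured by call, with list medians as black bars and the median of all tested genes (0.01) as a dotted line; vertical spread within a list is for display. In 5 of the lists called genes lie on both sides of 0, with Il12rb2 lowest at -2.61, and in the chemokine list the called genes lie on the higher side. The chemokine list leaves out Ccl3, Ccl4 and Ccl5.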

How the data were processed

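The authors deposited expected counts per gene, all of them already whole, so none was rounded. Salmon, DESeq and DESeq2 are the tools listed, without version or role, per the submitters' processing notes. The genome build is not given in the sources used here, nor is the annotation. Each row reached 10 counts in 3 or more libraries, so the table starts above that level. Identifiers without their version were matched to GENCODE M21 symbols (15138 of 15452). In that annotation genes on the opposite strand overlap Eomes, Runx3 and Gata3, and genes on the same strand overlap Ifng and Gata3. None of these overlapping genes has a row in the deposited counts. The library kit marks strand, per the labels' protocols, and whether quantification used it is not given. Strand would not separate genes on the same strand.

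Counts were fitted across the whole table with edgeR 4.0.16 in R 4.3.3: filterByExpr (91 genes removed), TMM, quasi-likelihood dispersions estimated robustly, a design of genotype alone, an F test and Benjamini-Hochberg adjustment over all 15361 genes. Each SE is the log2 fold change over the root of F, and 95% intervals use the fitted degrees of freedom. Calls, counts and non-overlap are given beside the same over all genes. The fit was also run on simulated counts drawn with dispersions taken from the same fit. No simulated library was made uneven, so that run does not show how the fit behaves with a library such as KO replicate 2. Replicates differed beyond sampling noise in every pair (lowest chi-square per degree of freedom 24.05), so each counted as 1 sample. A count of 0 allows 3 counts, 0.0742 to 0.0888 CPM, and covers counting error only.

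The 10 genes, the lists and the naming rule (all 10 genes, up to 4 called genes per list with the smallest p, and a fixed set) were chosen with earlier results of these data known; values of some genes that the rule names are not reported here. Alternatives were other scalings, DESeq2 1.42.0, limma-voom (limma 3.58.1), other filters, no robust estimation, a test against 1.2-fold, a replicate block, leaving out each library or 3 together, and leaving out 27 entries over 5 times higher in KO replicate 2 than in the other KO libraries. Figures used matplotlib 3.10.9.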

Additional observations from a re-analysis of the deposited data

How the results depend on the processing

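Of the 10 genes, Runx3 and Ccl5 kept their direction and call wherever they were tested, and no gene of the 10 changed sign under any alternative. The number of the 10 called was 5, and with at least 50 counts in 3 libraries it was 3, since Hlx, Ifng and Ccl5 were not tested, with 0 called higher. DESeq2 called 1 higher, as did leaving out WT replicate 2 and KO replicates 2 and 3 together, where 4 were lower (Runx3, Gzmb, Gata3 and Eomes). Leaving out 1 library gave 3 to 6 called (3 without WT replicate 1, 6 without WT replicate 2), 2 to 3 higher and 1 to 3 lower, and 38 to 51 list genes. Tested against 1.2-fold, 3981 genes passed in place of 7311 and 33 list genes in place of 51, and the calls of Ccl4, Il4ra, Cbfb, Bcl6, Bhlhe40, Ccl22, Ccr1 and Pdha1 ended. Upper-quartile factors made 59.95% of all calls higher, against 48.53%.

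Genes near 0 changed sign without being called. Upper-quartile factors, library totals and the 50-count filter gave Runx1 0.0766, 0.0400 and 0.0423 and Cd3e 0.0352, 0.0005 and 0.0011. Leaving out 1 library gave Runx1 -0.0577 to 0.0693, Prf1 -0.2115 to 0.0520, Il13 -0.4255 to 0.3134 and Stat6 -0.0314 to 0.0576, and leaving out the 3 libraries gave Il13 -0.2886 and Stat6 -0.0968. The cause was not tested.

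Deviations of same-numbered libraries correlated at -0.10, 0.09 and -0.26, and not every library correlated best with its own number. Correlations over all genes with 3 libraries per group cannot decide whether the replicate numbers pair the libraries. With the number as a replicate block 5 of the 10 genes were called, 3 higher and 2 lower, and 47 list genes. Ifng was then called (1.123, adjusted p = 0.0129), as was Xcl1, and Gzmb (-1.119, adjusted p = 0.0942) and Ccr1 were not. Hlx and Ifng rest on 3 to 57 counts per library, which limits their precision.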
